A study of Homo sapiens with 40 samples.

Results

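Mitochondria take up metabolites through the SLC25 carriers of the inner membrane and take up proteins through the TOM and TIM translocases, and 66 genes for these proteins were followed before and after proximity capture of RNA in HEK293T cells, a human embryonic kidney line. The 66 genes were chosen by their symbols, SLC25A, TIMM or TOMM followed by a number, and by a mean level of at least 1 CPM, counts scaled to an equal library total, over the 20 input libraries. Of 57992 genes in the count table, 73 carried such a symbol and 7 stayed below that level (SLC25A2, SLC25A31, SLC25A41, SLC25A52, TIMM22, TOMM20L and TOMM6). Just inside the limit were SLC25A34 at 1.40 CPM, SLC25A47 at 1.80 CPM and SLC25A18 at 1.89 CPM, and just outside were TOMM20L at 0.663 CPM and SLC25A41 at 0.539 CPM. The list holds 44 carriers, 8 TOMM genes, 7 genes of the TIM23 complex, 6 small TIM chaperones and TIMM29 of the TIM22 complex. SLC25A17, a peroxisomal carrier, and TOMM34, a cytosolic cochaperone, carry matching symbols although their proteins do not act in the inner membrane or the outer membrane pore. The choice used symbols and input levels and not the change after enrichment. Had a gene also needed a value above input in all 9 arms, 2 genes would have remained, TIMM21 and TIMM8A. All 66 passed the count filter of every fit.

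Cells expressed the peroxidase APEX2, which uses peroxide to activate biotin-phenol so that it tags molecules within a short distance with biotin. The enzyme was sent to the mitochondrial matrix (MITO), the endoplasmic reticulum membrane (ERM), the nuclear lamina (LMNB1) or the cytosol (NES). The labelled arms received 6-thioguanosine (s6G) or 4-thiouridine (s4U), nucleosides that cells build into newly made RNA, at 100 µM for 5 h, with 0.5 mM biotin-phenol and then a 1 min pulse of 1 mM peroxide. In the APEX only arms the thionucleoside was left out, and in the unlabelled arms the biotin-phenol as well, with the peroxide kept. MITO was used with s6G, s4U, APEX only and unlabelled cells, LMNB1 with s6G, APEX only and unlabelled cells, and ERM and NES with s6G alone. Each of the 9 arms holds an enriched group, RNA bound to streptavidin from 6.5 µg of RNA, and an input group made from 300 ng of RNA before the beads. Groups hold 2 libraries, or 4 for ERM, which makes 40 libraries in 18 groups. All libraries came from polyA-selected RNA, with 15 PCR cycles for enriched and 11 for input libraries.

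Carriers of the SLC25 family are encoded in the nucleus, translated in the cytosol and inserted into the inner membrane. TOMM70 is the receptor that takes up carrier precursors, TOMM20 and TOMM22 receive precursors with a cleavable presequence, and TOMM40 forms the pore. The small TIM chaperones bring carriers through the intermembrane space to the TIM22 complex, and the TIM23 complex passes presequence proteins into the matrix. Their mRNAs can lie free in the cytosol or at membranes.

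Promoter sequence is shown for genes chosen by words in their promoters. Other genes that the results below turn on are not shown. RefSeq promoter entries of GRCh38.p14 existed for 58 of the 66 genes. In windows from 250 bases before to 50 bases after the listed start, the full cyclic AMP response element, TGACGTCA, searched on both strands, was found in 3 of these 58 promoters, 5.17%, against 1.98% of 27303 promoters. The 3 genes are the carriers SLC25A25, SLC25A33 and SLC25A36. All 3 belong to the genes that were higher after enrichment with both ERM and NES (3 of 13 with an entry), and none of 13 genes lower with both constructs held the word. SLC25A5, an ADP/ATP carrier that was lower with both constructs, is shown beside them because its promoter carries the TATA box word TATAAA. Capitals mark these words, and each sequence runs 5′ to 3′ on the plus strand and ends 1 base before the listed start.

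SLC25A25, chr9:128098257-128098506: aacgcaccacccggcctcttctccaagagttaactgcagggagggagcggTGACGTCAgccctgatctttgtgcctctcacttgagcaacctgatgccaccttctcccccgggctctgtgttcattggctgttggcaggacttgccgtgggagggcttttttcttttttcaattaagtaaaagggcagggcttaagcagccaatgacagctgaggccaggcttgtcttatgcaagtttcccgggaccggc
SLC25A33, chr1:9539215-9539464: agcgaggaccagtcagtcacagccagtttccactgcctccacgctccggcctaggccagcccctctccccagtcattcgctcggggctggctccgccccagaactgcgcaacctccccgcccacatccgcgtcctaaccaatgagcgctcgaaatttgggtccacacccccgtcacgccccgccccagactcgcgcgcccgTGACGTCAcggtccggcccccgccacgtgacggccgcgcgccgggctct
SLC25A36, chr3:140941586-140941835: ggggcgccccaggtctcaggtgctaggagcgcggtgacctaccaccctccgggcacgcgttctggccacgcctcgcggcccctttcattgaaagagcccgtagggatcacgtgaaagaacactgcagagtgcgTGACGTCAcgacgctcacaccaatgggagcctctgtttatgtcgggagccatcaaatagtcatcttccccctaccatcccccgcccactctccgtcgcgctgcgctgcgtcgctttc
SLC25A5, chrX:119468194-119468443: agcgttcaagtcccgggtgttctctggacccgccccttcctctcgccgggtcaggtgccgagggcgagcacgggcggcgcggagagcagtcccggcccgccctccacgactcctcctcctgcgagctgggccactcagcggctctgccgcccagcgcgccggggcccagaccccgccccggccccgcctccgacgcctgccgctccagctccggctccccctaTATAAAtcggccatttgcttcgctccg

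The word begins 200 bases before the listed start of SLC25A25, 49 before that of SLC25A33, 117 before that of SLC25A36 and, for the TATA box, 27 before that of SLC25A5. The SLC25A25 start used by the table lies inside the annotated gene (chromosome 9, 128068232 to 128109245). Among the other words searched on both strands, the GABPA core CCGGAAG was in 18 of the 58 promoters, 31% against 10.7% of all promoters. The NRF1 core, GCGC, any 2 bases and GCGC again, was in 11, 19% against 8.78%, and the E-box CACGTG in 9, 15.5% against 7.44%. The E-box word also lies in the SLC25A33 and SLC25A36 promoters printed above. The GC box GGGCGG was in 40, 69% against 44.6%, and the TATA box word in 3, 5.17% against 12%. Other words were also unevenly spread over the 13 genes higher and 13 lower with both ERM and NES. The GABPA core was in 5 higher and 1 lower, the E-box in 4 and 1. The NRF1 core was in 1 and 3, the GC box in 9 and 10, the TATA box word in 0 and 1. These groups come from the same data and the splits were not tested, so no word is read as a mark of either group. All are matches of letters and were not tested as binding sites.

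Libraries held 123341 to 14496768 counts on genes. The 2 enriched unlabelled MITO libraries were the shallowest, at 123341 and 842177, and the 20 inputs held 3514076 to 12602028. ERM libraries with numbers 1 and 2 held 5342584 to 6664875 counts and those with numbers 3 and 4 held 12382757 to 14496768. RNA of the mitochondrial genome made up 26.3 to 58.2% of counts in the 6 labelled and APEX only enriched MITO libraries and 1.45 to 9.53% in the other 34 libraries. Of 6 markers fixed for HEK293T cells, VIM, CDH2, NEFM, NEFL and PAX2 were above 0 in every input and LHX1 had a median of 0. Markers of other cell types summed to 0.177 to 4.3 CPM per input.

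In the inputs the 66 mRNAs covered a wide range of levels. Values here are plain CPM, which are not per gene length, so each compares a gene with itself between libraries rather than with other genes. SLC25A6, an ADP/ATP carrier on chromosome X from 1386152 to 1392113, had a mean of 998 CPM over 20 inputs (675 to 1620). SLC25A5, the ADP/ATP carrier of dividing cells on chromosome X from 119468444 to 119471396, had 890 CPM (720 to 1190), and SLC25A3, the phosphate carrier, had 602 CPM. TOMM20 had 708 CPM, TOMM40 281 CPM and TOMM22 190 CPM. In the TIM23 complex TIMM50 had 187 CPM, TIMM17A 172 CPM and TIMM17B 148 CPM, and among the small TIM chaperones TIMM13 had 195 CPM, TIMM8B 85.5 CPM and TIMM10B 46.1 CPM. TIMM29 had 40.4 CPM. On a scale per length, in the authors' deposited table for MITO, SLC25A5 stood at 247, 350, 417 and 1060 TPM in the enriched s6G, s4U, APEX only and unlabelled groups and at 1760 to 2040 TPM in the 4 input groups. SLC25A6 stood there at 146, 182, 156 and 492 TPM in the same enriched groups and at 828 to 993 TPM in the inputs. By these input values the ADP/ATP carriers SLC25A5 and SLC25A6 were followed by TIMM13, SLC25A39 and SLC25A11. These TPM values still contain the mitochondrial RNA in their total, which was far larger in the enriched labelled MITO libraries.

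Of all counts in a library, the 66 genes together took 0.703% in ERM enriched libraries and 0.8% in ERM inputs, means over 4 libraries each. They took 0.685% in NES enriched libraries and 0.725% in NES inputs, and 0.557% in LMNB1 s6G enriched libraries and 0.727% in their inputs. In the MITO s6G arm the share was 0.377% after enrichment and 0.74% in the inputs.

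**Figure D1:**
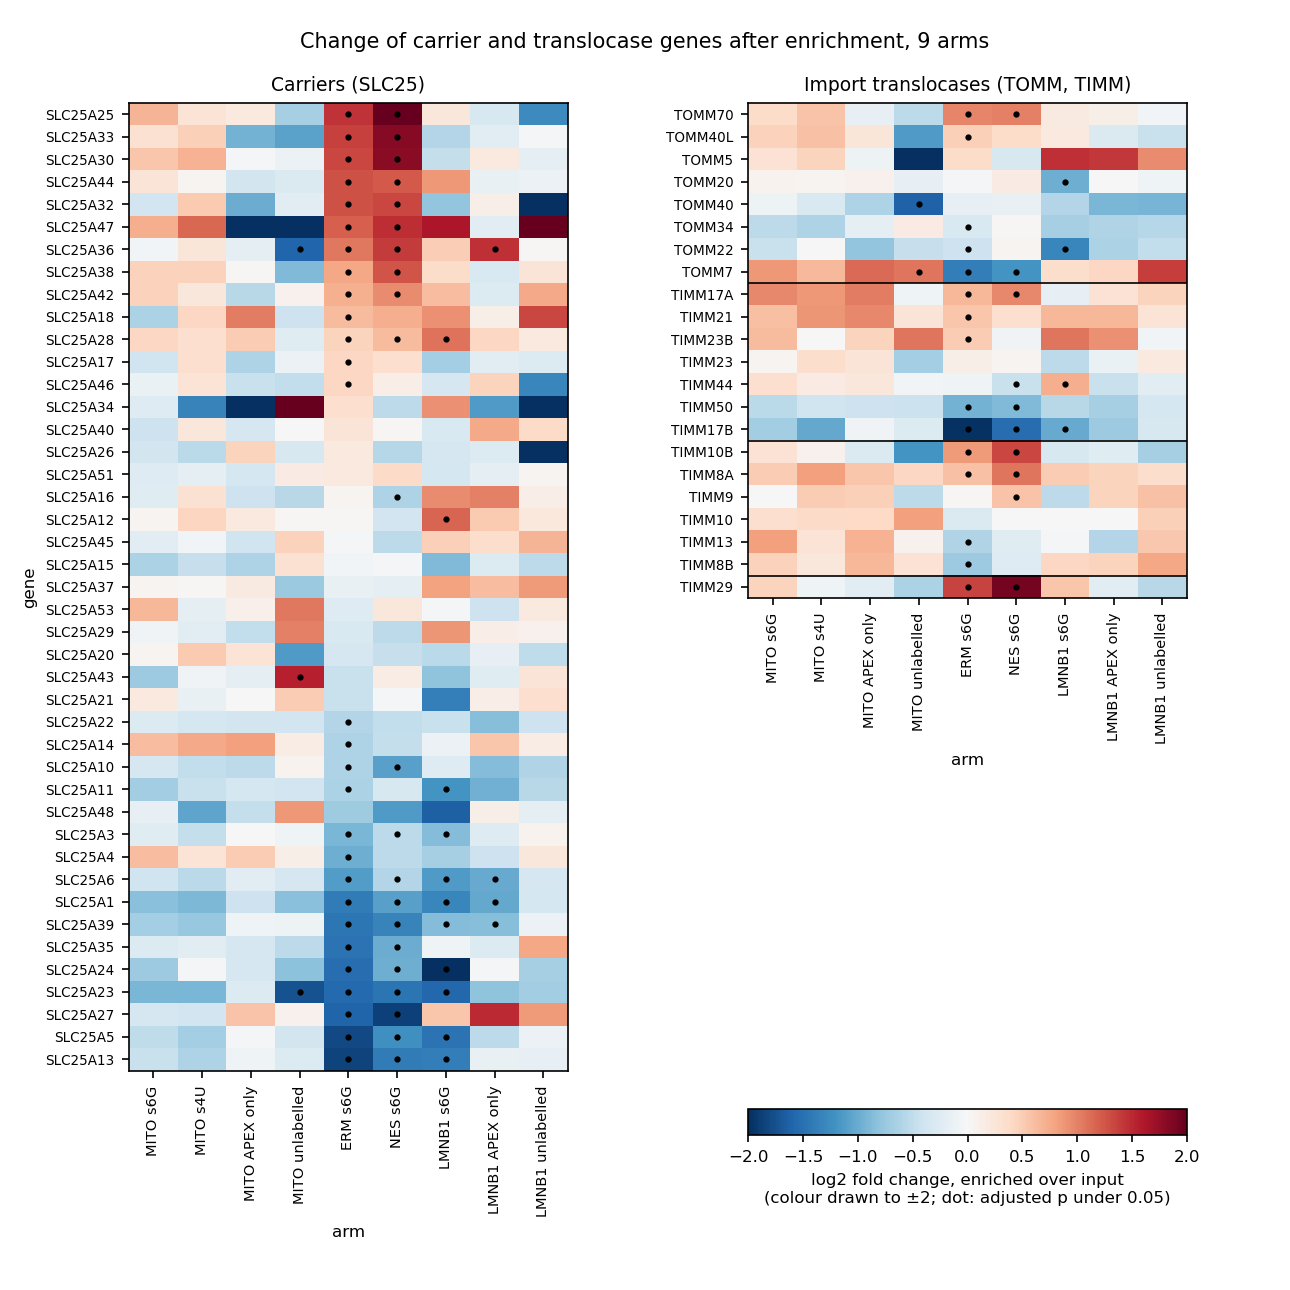
Log2 fold change of enriched over input libraries for the carrier and translocase genes (rows, ordered within a group by the ERM value, with 1 of the 66 not shown) in 9 arms (columns), in colour from -2 to 2, with a dot where edgeR's adjusted p was under 0.05. The dots gather in the ERM and NES columns, where SLC25A25 is at 1.45 and 2.02 and SLC25A13 at -1.85 and -1.40.

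With the ERM construct the genes divided evenly, and 22 were higher and 22 lower in RNA captured at the endoplasmic reticulum membrane with s6G than in input (edgeR quasi-likelihood test, Benjamini-Hochberg adjusted p under 0.05, n = 4 per group). Over all 15619 genes tested, 63.2% were called, 34.3% higher and 28.9% lower, so the number called among the 66 lay near the background. The median log2 fold change was -0.05 over the 66 genes and 0.11 over all genes tested. ERM and NES had no APEX only or unlabelled arm. In both, binding to the beads without biotin and an effect of s6G cannot be told apart from nearness to the enzyme. The split rests on the scaling of the libraries. With total counts in place of TMM factors 28 were higher and 16 lower, and the median over all genes shifted by 0.31. A fold change here compares captured RNA with input, and is not a change in how much of an RNA the cells held. These are bulk libraries, so differences between cells cannot be seen.

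The carriers that were higher with ERM included the calcium-regulated ATP-Mg/phosphate carrier SLC25A25 and the pyrimidine nucleotide carriers SLC25A33 and SLC25A36, whose promoters are printed above. SLC25A25 had 100, 94.5, 101 and 105 TMM-scaled CPM in the ERM enriched libraries and 43.2, 26.6, 35.9 and 40.2 in the ERM inputs. All 4 enriched libraries were close together and more than any input. Its log2 fold change was 1.45 ± 0.13 (SE), a 2.73-fold rise (edgeR adjusted p = 2.97e-08). SLC25A33, on chromosome 1 from 9539465 to 9585173, had 74.7, 85.3, 85.5 and 84 CPM in enriched libraries and 33.5, 36.3, 28.9 and 30 in inputs (log2 fold change 1.36 ± 0.11, edgeR adjusted p = 7.99e-09). SLC25A36, on chromosome 3 from 140941836 to 140980995, had 254, 268, 240 and 232 CPM in enriched libraries and 105, 135, 117 and 119 in inputs (1.06 ± 0.10, edgeR adjusted p = 6.24e-08). For both genes the groups did not overlap. SLC25A30, a carrier linked to kidney mitochondria, reached 1.34 ± 0.12 (edgeR adjusted p = 2.87e-08), and SLC25A44, a carrier of branched-chain amino acids, reached 1.27 ± 0.12 (3.85e-08). The folate carrier SLC25A32 was at 1.27, SLC25A47 at 1.20 and the glycine carrier SLC25A38 at 0.78. In all, 14 of 44 carriers rose with ERM.

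Another 15 carriers fell, among them every ADP/ATP carrier on the list. SLC25A5 had 249, 333, 377 and 390 CPM in ERM enriched libraries and 1020, 919, 1340 and 1430 in ERM inputs. The highest enriched library stayed well under the lowest input, and the log2 fold change was -1.80 ± 0.16 (edgeR adjusted p = 1.85e-08). SLC25A6 had 581, 615, 859 and 966 CPM in enriched libraries and 1570, 1380, 1640 and 1950 in inputs (-1.11 ± 0.17, edgeR adjusted p = 1.02e-05). SLC25A4, the ADP/ATP carrier of heart and muscle, had 18.8, 19.2, 30.7 and 28.9 CPM in enriched libraries and 40, 42.5, 56.8 and 55.5 in inputs (-0.98 ± 0.17, edgeR adjusted p = 6.72e-05). For all 3 genes the groups stood apart, and the libraries numbered 3 and 4, the deeper ones, had the higher values within each group. The part of depth in this was not tested. SLC25A5 and SLC25A6 share long stretches with each other and with processed copies, so how reads were divided among them is uncertain, and SLC25A6 lies in the region that chromosomes X and Y share.

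The calcium-regulated aspartate/glutamate carrier SLC25A13, on chromosome 7 from 96120220 to 96322098, fell to 33.6, 31.1, 45.2 and 39.5 CPM in enriched libraries, against 113, 115, 147 and 167 in inputs (log2 fold change -1.85 ± 0.14, edgeR adjusted p = 3.83e-09). SLC25A23, an ATP-Mg/phosphate carrier, had 48.6, 57.7, 62.6 and 65.8 CPM in enriched libraries and 197, 178, 162 and 154 in inputs (-1.55 ± 0.12, edgeR adjusted p = 3.26e-09). SLC25A24, of the same kind, had 23.2, 29.3, 23 and 20 CPM in enriched libraries and 61.8, 73.3, 74.2 and 65.3 in inputs, a log2 fold change of -1.53. Thus the ATP-Mg/phosphate carriers did not move as a group, since SLC25A25 rose while SLC25A23 and SLC25A24 fell. SLC25A27, known as UCP4, had 4.19, 4.65, 3.06 and 2.68 CPM in enriched libraries and 11, 11.7, 9.62 and 10.7 in inputs (-1.60 ± 0.22, edgeR adjusted p = 3.09e-06). The glutathione carrier SLC25A39 was at -1.45, the citrate carrier SLC25A1 at -1.40 and the phosphate carrier SLC25A3 at -0.92.

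**Figure D2:**
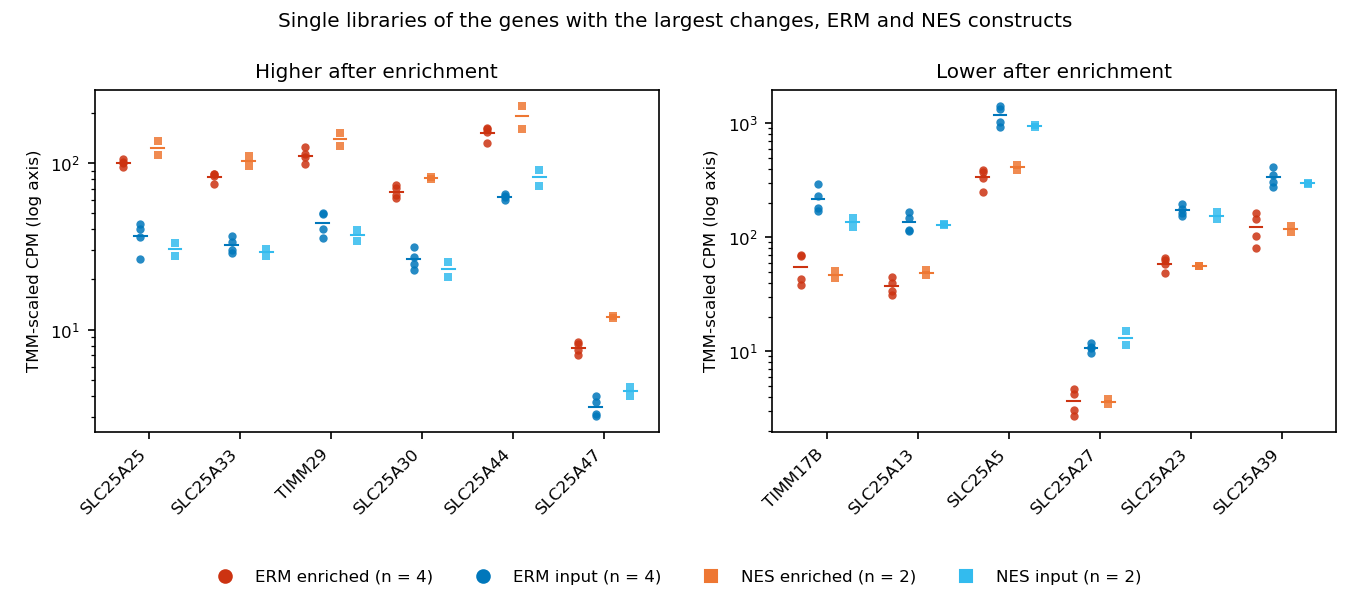
TMM-scaled CPM on a log axis in each ERM and NES library, with the group mean as a bar, for the genes with the largest called changes of either sign. In each of the 12 genes drawn, all enriched libraries (red, orange) lie on 1 side of the inputs (blue) of their construct, above them in the left panel and below them in the right panel.

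Among the TOMM genes with ERM, TOMM70 and TOMM40L rose, TOMM7, TOMM22 and TOMM34 fell, and the other 3 were not called. TOMM70, the receptor for carrier precursors, had 171, 173, 154 and 148 CPM in enriched libraries and 86.9, 96, 74.9 and 71.3 in inputs (log2 fold change 0.98 ± 0.11, edgeR adjusted p = 3.94e-07). TOMM7, a small subunit that also steadies the kinase PINK1 at the TOM complex, had 45.4, 59, 70.3 and 75.2 CPM in enriched libraries and 143, 124, 183 and 204 in inputs (-1.38 ± 0.17, edgeR adjusted p = 1.39e-06). Neither gene's groups overlapped. TOMM20 had 890, 1040, 993 and 900 CPM in enriched libraries and 880, 924, 999 and 1080 in inputs, with overlapping groups and a log2 fold change of -0.02, and the pore gene TOMM40 was at -0.16. TOMM20 has many processed copies in the genome, so its reads may be divided among them.

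In the TIM23 complex TIMM17A and TIMM17B, alternative subunits of the channel encoded on chromosome 1 (201955503 to 201970664) and chromosome X (48893447 to 48898143), moved in opposite directions. TIMM17A had 228, 296, 342 and 323 CPM in ERM enriched libraries and 151, 150, 222 and 225 in ERM inputs (log2 fold change 0.67 ± 0.15, edgeR adjusted p = 0.000769). TIMM17B had 38.5, 42.8, 69.6 and 68.4 CPM in enriched libraries and 181, 170, 230 and 293 in inputs (-1.98 ± 0.20, edgeR adjusted p = 2.18e-07), the lowest log2 fold change of the 66 genes with ERM. The lowest enriched TIMM17A library was just above the highest input, and the TIMM17B groups were far apart. TIMM21, which links the TIM23 complex to the TOM complex, was at 0.56 and TIMM23B, a near copy of TIMM23, at 0.50, both called higher. TIMM50, the receptor of the TIM23 complex, was called lower at -0.95, and the channel gene TIMM23 was at 0.11 and TIMM44, the anchor of the import motor, at -0.08, neither of them called. Reads of TIMM23 and TIMM23B may be divided between the 2 copies.

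The small TIM chaperones also split with ERM, with TIMM10B at 0.85 and TIMM8A at 0.59 called higher, TIMM8B at -0.73 and TIMM13 at -0.60 called lower, and TIMM9 and TIMM10 not called. TIMM8A and TIMM13 work as partners, and so do TIMM9 and TIMM10. TIMM8A had 66, 74.2, 80.1 and 80.2 CPM in enriched libraries and 41.8, 47.6, 51.8 and 58 in inputs, and TIMM13 had 121, 139, 193 and 215 CPM in enriched libraries and 210, 188, 290 and 327 in inputs. The TIMM8A groups did not overlap, while 2 enriched TIMM13 libraries exceeded its lowest input. TIMM29, a metazoan subunit of the TIM22 complex on chromosome 19 from 10928811 to 10930254, had 97.9, 108, 113 and 124 CPM in enriched libraries and 49.9, 49.3, 40 and 35.5 in inputs (log2 fold change 1.35 ± 0.13, edgeR adjusted p = 4.17e-08).

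With the NES construct, which places APEX2 in the cytosol, 17 of the 66 genes were higher and 16 lower than in input with s6G (edgeR, adjusted p under 0.05, n = 2 per group). Over all genes 55.1% were called, 28.7% higher and 26.4% lower, again near the share among the 66, and the median log2 fold change was -0.05 over the 66 and 0.01 over all genes. SLC25A25 had 136 and 111 CPM in NES enriched libraries and 27.5 and 33 in NES inputs, a log2 fold change of 2.02 ± 0.20 (edgeR adjusted p = 1.5e-07) that was the highest of the list. TIMM29 had 151 and 126 CPM in enriched libraries and 39.6 and 33.8 in inputs (1.92 ± 0.19, edgeR adjusted p = 1.57e-07). SLC25A33 had 110 and 96.1 CPM in enriched libraries and 27.7 and 30.5 in inputs (1.82 ± 0.16, edgeR adjusted p = 6.52e-08). Each of these groups stood far from its inputs. SLC25A30 had 79.8 and 82 CPM in enriched libraries and 20.6 and 25.4 in inputs (1.81 ± 0.18, edgeR adjusted p = 2.02e-07), and SLC25A36 was at 1.40, SLC25A38 at 1.26 and TOMM70 at 1.00. SLC25A47 was at 1.47 ± 0.28 (edgeR adjusted p = 0.000254) with 12 and 11.8 CPM in enriched libraries and 4.01 and 4.54 in inputs.

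At the low end with NES stood the same kinds of genes. SLC25A27 had 3.45 and 3.8 CPM in enriched libraries and 11.3 and 15.1 in inputs (log2 fold change -1.86 ± 0.31, edgeR adjusted p = 6.12e-05). TIMM17B had 44 and 50.1 CPM in enriched libraries and 123 and 147 in inputs (-1.52 ± 0.29, edgeR adjusted p = 0.000273), while TIMM17A had 363 and 344 CPM in enriched libraries and 194 and 170 in inputs (0.96 ± 0.21, edgeR adjusted p = 0.000981). The opposite movement of the alternative TIMM17 subunits was therefore seen with NES as well as with ERM. SLC25A23 was at -1.46 ± 0.17 (edgeR adjusted p = 9.21e-07), SLC25A13 at -1.40 ± 0.20 (1.12e-05) and SLC25A39 at -1.33 ± 0.26 (0.000299). SLC25A5 had 433 and 389 CPM in enriched libraries and 935 and 975 in inputs (-1.22 ± 0.22, edgeR adjusted p = 0.000145), and SLC25A6 was called at -0.58. SLC25A4, at -0.53, was not called (edgeR adjusted p = 0.0758) but was called with the replicate number as a block (adjusted p = 0.00362). TOMM7 had 47.6 and 63.8 CPM in enriched libraries and 119 and 137 in inputs (-1.20 ± 0.24, edgeR adjusted p = 0.000452). TIMM44 was called lower at -0.45 ± 0.19 (edgeR adjusted p = 0.0479). Among the small TIM chaperones TIMM10B at 1.34, TIMM8A at 1.07 and TIMM9 at 0.57 rose and none fell.

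ERM and NES shared most of their calls. Higher in both were 16 genes, 72.7% of those called higher with ERM and 94.1% of those called higher with NES, and lower in both were 14, 63.6% and 87.5% of each list. No gene was called in opposite directions. The overlap over all genes is not given here. Across the 66 genes the log2 fold changes of the arms had a Spearman rho of 0.89 and a Pearson r of 0.91, given as a description since these genes share libraries and depth, and over all genes the values were 0.9 and 0.88. The difference between ERM and NES enrichment, tested as an interaction, was called for none of the 66 genes and for 1 of 15619 genes, 0.0064%. At an unadjusted p under 0.05 it had 11 of the 66, against 13.9% of all genes, and DESeq2 also called none. With the replicate number as a block, 6.1% of all genes were called and 2 of the 66, SLC25A5 at -0.58 ± 0.15 (edgeR adjusted p = 0.0276) and SLC25A6 at -0.57 ± 0.16 (0.0482), both lower with ERM than with NES. The unblocked interval for SLC25A5 ran from -1.15 to -0.02, so the lack of calls does not show that the arms were alike. ERM numbers 1 and 2 alone gave 2 calls and numbers 3 and 4 alone gave 7, a division chosen after seeing the data. The share of all genes called in these fits is not given, so these counts are no result about the 66. Values below 0 in this difference were found for 45 of the 66 genes (median -0.19) and for 63 of 76 respiratory chain subunit genes, against a median of -0.04 over all genes. All 6 small TIM chaperones were among the 45 (median -0.47), as was TIMM29 at -0.57, and none passed the test. The share of all genes below 0 is not given here, so these counts are not read as a trait of the 66. In the authors' deposited table of ERM over NES, 1 of the 66 genes was higher and 5 were lower at an unadjusted p under 0.05, where 8.42% of 31627 genes passed.

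**Figure D3:**
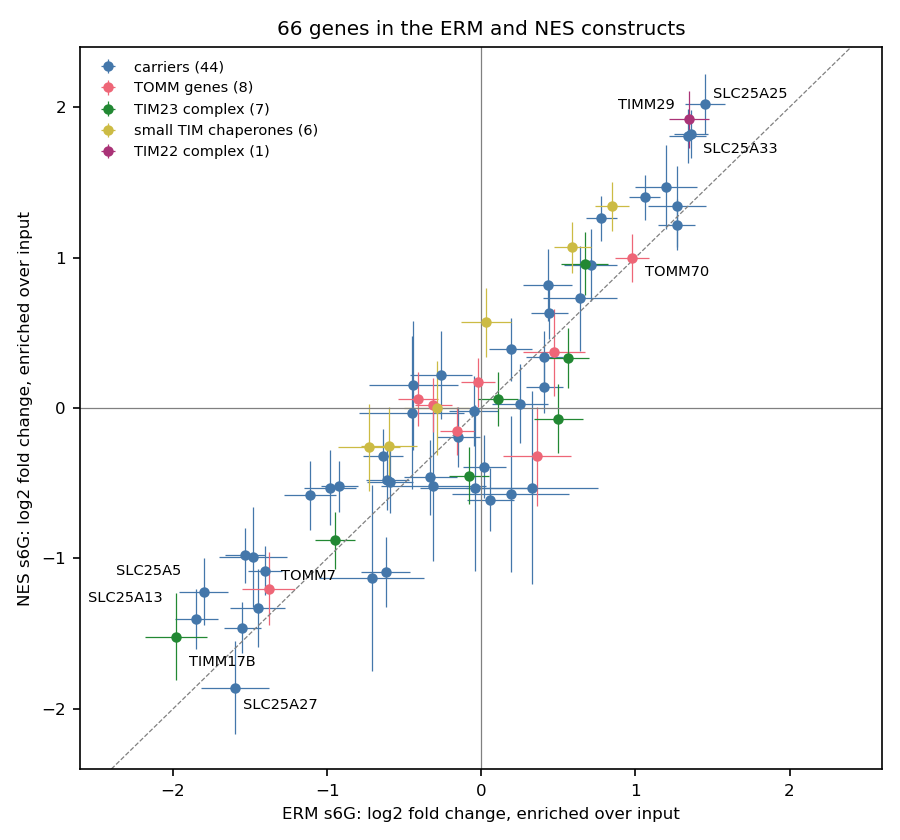
Log2 fold change of enriched over input with ERM (x axis) and NES (y axis) for the 66 genes, coloured by group, with standard errors as bars and the line of equal change dashed. The genes lie along the line (Pearson r 0.91), from SLC25A25 and TIMM29 at the upper right to TIMM17B and SLC25A27 at the lower left.

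At the nuclear lamina most called genes were lower. With LMNB1 and s6G, 3 of the 66 genes were higher and 12 lower than in input (edgeR, adjusted p under 0.05, n = 2 per group), against 13% of 16525 genes called, 5.37% higher and 7.64% lower. The median log2 fold change was -0.29 over the 66 and 0.13 over all genes. With total counts as the scaling 6 were higher and 12 lower. Without 1 library at a time the number called was 7 without enriched replicate 2, 8 without input replicate 2, 9 without input replicate 1 and 13 without enriched replicate 1.

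The carrier SLC25A24 had 14.3 and 13.1 CPM in LMNB1 s6G enriched libraries and 70.5 and 59.8 in the inputs, a 4.74-fold fall and a log2 fold change of -2.24 ± 0.34 (edgeR adjusted p = 0.00153). SLC25A23 had 64.7 and 64.3 CPM in enriched libraries and 158 and 225 in inputs (-1.57 ± 0.26, edgeR adjusted p = 0.00215). SLC25A5 had 434 and 296 CPM in enriched libraries and 1030 and 1010 in inputs (-1.48 ± 0.23, edgeR adjusted p = 0.00162). Each enriched pair stayed clearly below its inputs. SLC25A13 was at -1.39 ± 0.22 (edgeR adjusted p = 0.00182) and SLC25A1 at -1.31 ± 0.22 (0.00223), and SLC25A6 at -1.13, the oxoglutarate carrier SLC25A11 at -1.20, SLC25A3 at -0.87 and SLC25A39 at -0.87 were also called lower. Among the translocases TOMM22 fell by 1.30, TOMM20 by 0.98 and TIMM17B by 1.01 on the log2 scale. TOMM20 had 445 and 334 CPM in enriched libraries and 835 and 699 in inputs, while with ERM and NES it was not called. Of the 12 genes lower here, 11 were also lower with ERM, 91.7% of the LMNB1 list and 50% of the ERM list. The overlap over all genes is not given here. The log2 fold changes of these 2 arms had a Spearman rho of 0.53 over the 66 and 0.36 over all genes. ERM and LMNB1 inputs are separate libraries.

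The 3 genes that rose with LMNB1 and s6G were the aspartate/glutamate carrier SLC25A12, the iron carrier SLC25A28 and TIMM44. SLC25A12 had 26.9 and 36.2 CPM in enriched libraries and 11.3 and 16.6 in inputs (log2 fold change 1.17 ± 0.30, edgeR adjusted p = 0.0208). SLC25A28 had 109 and 81.6 CPM in enriched libraries and 52.6 and 37 in inputs (1.09 ± 0.28, edgeR adjusted p = 0.0222). TIMM44 had 251 and 167 CPM in enriched libraries and 137 and 117 in inputs (0.72 ± 0.22, edgeR adjusted p = 0.0492). None of these pairs overlapped its inputs, yet each call depended on single libraries. The SLC25A12 call was lost without enriched replicate 2, input replicate 1 or input replicate 2 (adjusted p = 0.154, 0.177 and 0.0582), the SLC25A28 call without enriched replicate 1 or input replicate 2 (0.149 and 0.219), and the TIMM44 call without enriched replicate 1, input replicate 1 or input replicate 2 (0.35, 0.125 and 0.292). These p come from edgeR, and the 5 genes with the lowest values kept their calls in all fits that left out 1 library. SLC25A12 and SLC25A13, the alternative aspartate/glutamate carriers, were thus called in opposite directions in this arm. The SLC25A12 inputs averaged 14 CPM with s6G, against 28.8 with APEX only and 33.9 in unlabelled LMNB1 cells. Its enriched libraries averaged 31.6, 41.5 and 39.3 CPM in the same order. The s6G enriched mean thus lay below that of the unlabelled cells, each over 2 libraries. The part of the low s6G input in the call was not tested. SLC25A25, SLC25A33 and SLC25A30, high with ERM and NES, were at 0.23, -0.59 and -0.48 here and were not called. TIMM44 was called higher with LMNB1 and s6G and lower with NES.

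LMNB1 cells with APEX only had 1 gene higher and 3 lower, against 1.43% of all genes called, 0.411% higher and 1.02% lower. SLC25A36 had 245 and 238 CPM in enriched libraries and 88.2 and 86.5 in inputs (log2 fold change 1.46 ± 0.28, edgeR adjusted p = 0.032). SLC25A1 had 82.4 and 116 CPM in enriched libraries and 197 and 208 in inputs (-1.03 ± 0.21, edgeR adjusted p = 0.0399). SLC25A6 was at -1.01 ± 0.22 (edgeR adjusted p = 0.0428) and SLC25A39 at -0.85 ± 0.18 (0.0423). Enriched and input libraries of these genes did not overlap. No call remained when any 1 library of the arm was left out, and the replicate block called 8 genes against 4.08% of all genes.

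Unlabelled LMNB1 cells, which measure what the beads bind without biotin, had none of the 66 genes called, against 0.0363% of all genes. At an unadjusted p under 0.05 there were 11 of the 66, against 17.3% of all genes, and DESeq2 called 1 higher and 4 lower. SLC25A5 had 621 and 871 CPM in these enriched libraries and 848 and 761 in inputs, overlapping groups. The difference between s6G and unlabelled enrichment was called for SLC25A5 alone, at -1.38 ± 0.32 with an interval from -2.07 to -0.69 (edgeR adjusted p = 0.0421), against 2.69% of all genes. That call was lost in 6 of 8 fits that left out 1 library, namely without s6G enriched replicate 2, unlabelled enriched replicate 2 or any 1 input. The number of the 66 called was 8 without unlabelled enriched replicate 1, 4 without unlabelled enriched replicate 2, 1 without s6G enriched replicate 1 and 0 in the other 5 fits. The replicate block called SLC25A25 at 1.51 and SLC25A13 at -1.23 beside it, against 5.72% of all genes. Neither s6G against APEX only nor APEX only against unlabelled gave a call among the 66 with LMNB1, or among all genes. At an unadjusted p under 0.05 these had 7 and 10 of the 66, against 12.2% and 10.6% of all genes, and DESeq2 called 5 and 2. The share of all genes that DESeq2 called is not given here, so its counts are no result about the 66. These contrasts share the unlabelled or APEX only libraries.

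**Figure D4:**
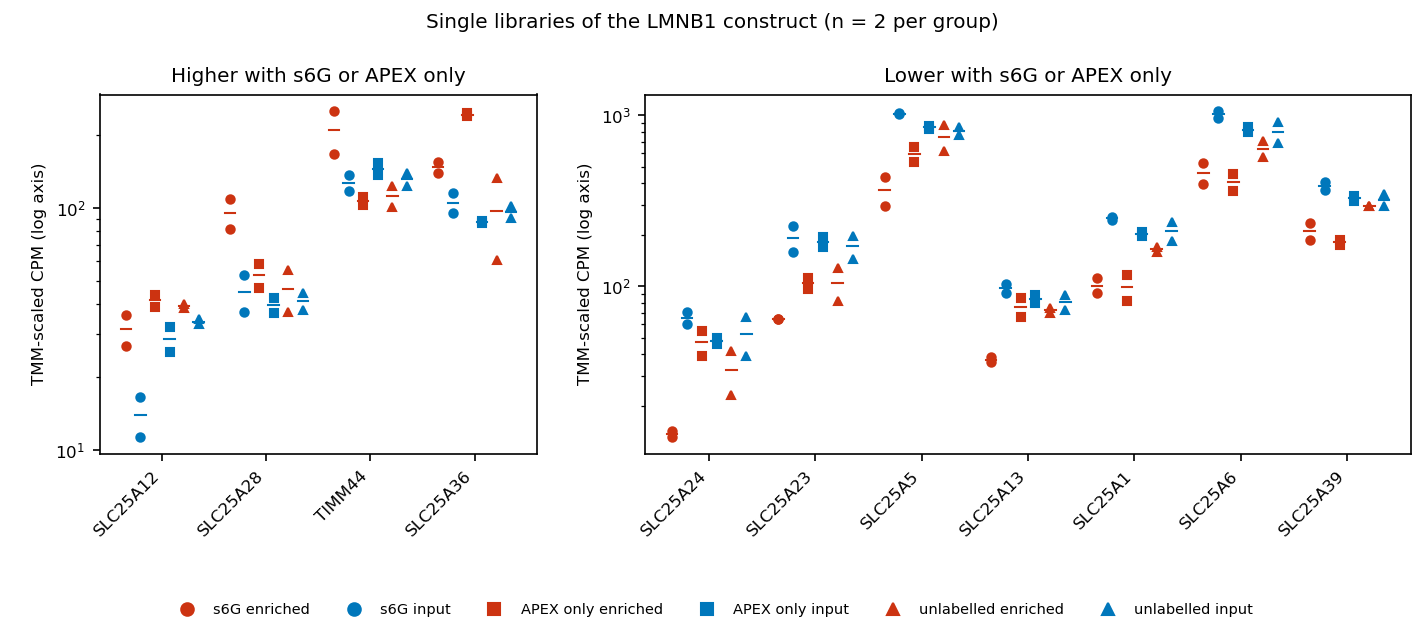
TMM-scaled CPM on a log axis in each LMNB1 library (n = 2 per group, bars are means) for the genes called with s6G or APEX only, with enriched libraries in red and inputs in blue. SLC25A24 enriched with s6G lies at 14.3 and 13.1 CPM, under all its other libraries, and SLC25A5 unlabelled libraries overlap between enriched and input.

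With the MITO construct, whose enzyme sits in the matrix, behind the membranes in which most of these proteins work, none of the 66 nuclear genes was called in the s6G, s4U or APEX only arm (edgeR, n = 2 per group). Over all 15151 genes 0.317%, 0.112% and 0.271% were called in these arms. At an unadjusted p under 0.05 there were 8, 10 and 5 of the 66 genes, against 8.86%, 6.93% and 8.86% of all genes, and DESeq2 called 5, 6 and 1. For DESeq2 the share of all genes called is not given, so its counts are no result about the 66. The replicate block called 5 with s6G, 7 with s4U and 9 with APEX only, against 6.82%, 4.98% and 7.15% of all genes. TIMM17A was higher under the block in all 3 arms (adjusted p = 0.00351, 0.0269 and 0.00231, edgeR). It had 360 and 304 CPM in s6G enriched libraries and 197 and 144 in their inputs, with an unblocked log2 fold change of 0.96 ± 0.38 (edgeR adjusted p = 0.441). TOMM7 had 190 and 335 CPM in s6G enriched libraries and 132 and 154 in their inputs, and 237 and 208 CPM in APEX only enriched libraries and 87.8 and 115 in theirs. Its groups did not overlap in either arm, and it passed the block (adjusted p = 0.0185 and 0.00054) but not the unblocked test (0.372 and 0.238). SLC25A23 and SLC25A1 fell under the block with s6G (adjusted p = 0.00706 and 0.0185) and with s4U (0.00907 and 0.0117).

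Scaling bears strongly on these arms. With total counts, which leave the mitochondrial RNA in the denominator, the median over all genes shifted by -0.87, -0.45 and -0.73 in the s6G, s4U and APEX only arms. On that scale 17, 5 and 6 of the 66 genes were called, all of them lower. Since genes in general shifted lower there, and the share of all genes called is not given, these counts are no result about the 66. Differences between the MITO arms gave no call among the 66 genes. For s6G, s4U and APEX only against unlabelled, 0.376%, 0.264% and 0.0396% of all genes were called, 9, 10 and 6 of the 66 had an unadjusted p under 0.05, against 18.6%, 19.2% and 16.4% of all genes, and DESeq2 called 2 in each. For s6G against APEX only, s4U against APEX only and s6G against s4U no gene at all was called, 0, 2 and 0 of the 66 had an unadjusted p under 0.05, against 2.45%, 2.74% and 0.581% of all genes, and DESeq2 called 0 of the 66. DESeq2's share over all genes is not given for these differences. Under the block 3, 2 and 3 of the 66 were called in the differences from unlabelled, against 10.4%, 10.6% and 6.96% of all genes.

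Unlabelled MITO cells had 2 genes higher and 3 lower, against 9.87% of all genes called, 5.78% higher and 4.09% lower, in the shallowest libraries of the series. With total counts 2 were higher and 1 lower. SLC25A43 had 38.3 and 39.5 CPM in enriched libraries and 11.9 and 14.6 in inputs (log2 fold change 1.56 ± 0.41, edgeR adjusted p = 0.0268), and TOMM7 had 131 and 230 CPM in enriched libraries and 91.6 and 88.6 in inputs (1.07 ± 0.33, 0.0498). SLC25A23 had 27.4 and 47 CPM in enriched libraries and 131 and 146 in inputs (-1.75 ± 0.30, edgeR adjusted p = 0.00826). SLC25A36 was at -1.59 ± 0.36 (edgeR adjusted p = 0.0152) and TOMM40 at -1.62 ± 0.43 (0.0283). All these genes had separate groups. No call remained without either input library, and there were 6 without enriched replicate 2 and 4 without enriched replicate 1. TOMM7 was therefore above its inputs with all 4 MITO arms, the unlabelled one included, and below them with ERM and NES. With LMNB1 it was also above its inputs in unlabelled cells, at 260 and 325 CPM in enriched libraries and 111 and 114 in inputs (1.38 ± 0.27, edgeR adjusted p = 0.0899), and in APEX only cells, at 99.5 and 161 CPM in enriched libraries and 97.9 and 97.1 in inputs (0.41 ± 0.27, 0.485). With LMNB1 and s6G its groups overlapped, at 245 and 151 CPM in enriched libraries and 166 and 144 in inputs.

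The enrichment with MITO and s6G was set against that with NES and s6G in a fit of all 40 libraries, in which 7.36% of 19314 genes were called, 3.33% higher and 4.03% lower. Of the 66 genes 1 was higher and 4 were lower. TOMM7 was higher by 2.04 ± 0.41, with an interval from 1.21 to 2.88 (edgeR adjusted p = 0.0019, n = 2 per group). SLC25A33 was lower by -1.54 ± 0.42 (edgeR adjusted p = 0.0199), TIMM29 by -1.51 ± 0.34 (0.00514), SLC25A36 by -1.48 ± 0.35 (0.00803) and SLC25A25 by -1.38 ± 0.36 (0.0156). Enriched MITO s6G libraries held 56.4 and 63 CPM of TIMM29 against 44.6 and 43.3 in their inputs, and 47.3 and 43.9 CPM of SLC25A33 against 44.3 and 29.5. Enriched MITO s6G libraries held 61.6 and 39.4 CPM of SLC25A25 against 31.6 and 32 in their inputs. Both enriched libraries were thus above both inputs for TIMM29 and SLC25A25 with MITO, at log2 fold changes of 0.44 and 0.68 against 1.92 and 2.02 with NES, while the SLC25A33 groups overlapped with MITO. The replicate block raised the calls to 16, against 18% of all genes. Total counts gave 1 higher and 23 lower and shifted the median over all genes by -0.90. Leaving out 1 library gave 2 to 7 calls, with 2 calls when MITO enriched replicate 2 or NES input replicate 1 was left out. TOMM7 and TIMM29 were called in all 8 of these fits. The SLC25A33 call was lost in 5 of them (adjusted p 0.0568 to 0.146, edgeR), the SLC25A25 call in 4 (0.0542 to 0.0895) and the SLC25A36 call in 2 (0.0538 and 0.0543). The constructs also differ in the libraries' mitochondrial RNA share, and the part of this in the difference was not tested.

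Across the 9 arms, 24 genes were called only higher, 24 only lower, 3 in both directions (TIMM44, SLC25A36 and TOMM7) and 15 in no arm. Of the 66 genes, 12 had a log2 fold change below 0 in every arm (SLC25A5, SLC25A6, SLC25A1, SLC25A11, SLC25A13, SLC25A22, SLC25A23, SLC25A24, SLC25A39, TIMM17B, TIMM50 and TOMM40). TIMM21 and TIMM8A were above 0 in every arm. The same counts over all genes are not given here, so none of them is read as a trait of the 66. Over all genes tested, ERM alone called 63.2% and NES alone 55.1%. TIMM21 had 53 and 43.5 CPM in LMNB1 s6G enriched libraries and 33.9 and 27.1 in their inputs, and 35.4, 44.8, 48.5 and 50.3 CPM in ERM enriched libraries and 26.3, 29.1, 34.3 and 31.8 in theirs. In unlabelled MITO cells its values of 32.8 and 34.8 CPM in enriched libraries and 36.8 and 20.7 in inputs overlapped. Each arm's inputs are its own, so no arm shares its libraries with another in these counts.

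**Figure D5:**
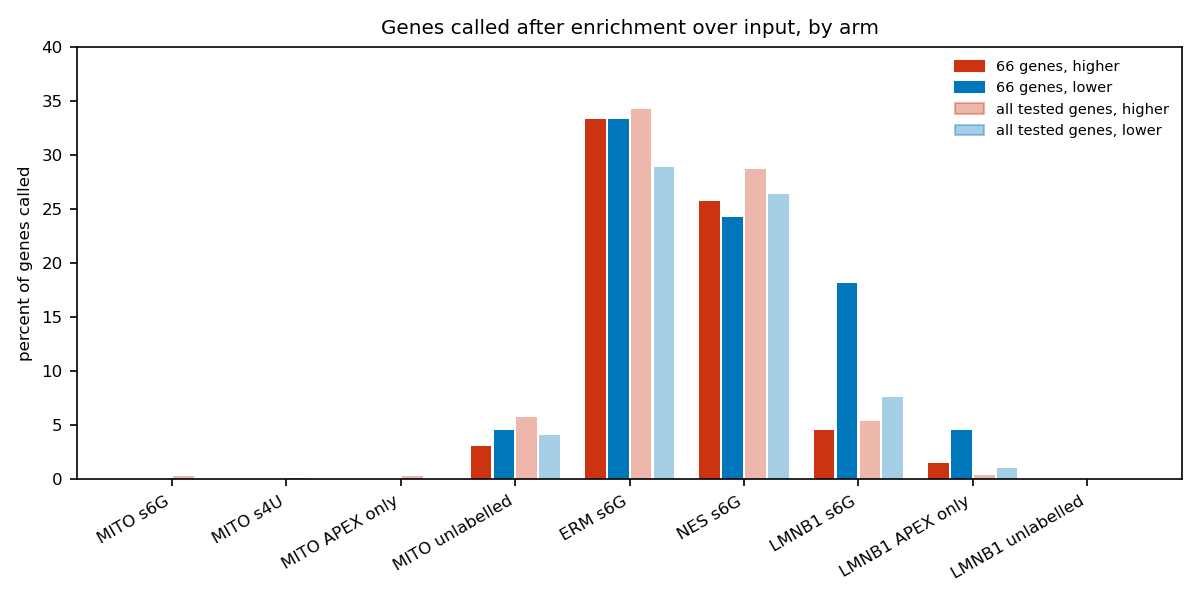
Percent of genes called higher (red) or lower (blue) after enrichment over input in 9 arms, for the 66 genes (full colour) and for all tested genes (pale). The bars of the 66 genes lie close to those of all genes with ERM (22 and 22 of 66 against 34.3% and 28.9%) and NES, and the lower bar of LMNB1 s6G (12 of 66) stands above that of all genes (7.64%).

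Among the 66 genes, those with the highest input CPM, which is not per gene length, had more lower than higher calls in the ERM, NES and LMNB1 s6G arms. Of the 22 with the highest input levels (80.2 to 998 CPM), 3 were higher and 15 lower with ERM, 3 and 11 with NES, and 1 and 11 with LMNB1 and s6G. Of the middle 22 (23.1 to 62.5 CPM), 13 were higher and 5 lower with ERM, 10 and 2 with NES, and 1 and 1 with LMNB1 and s6G. Of the 22 lowest (1.4 to 22.4 CPM), 6 were higher and 2 lower with ERM, 4 and 3 with NES, and 1 and 0 with LMNB1 and s6G. The median log2 fold change of these lowest 22 with NES was -0.05. Across the 66 genes the Spearman rho between log2 fold change and input level was -0.32 with ERM, -0.16 with NES and -0.43 with LMNB1 and s6G, and over all genes it was -0.19, -0.097 and -0.36. These are descriptions over genes that share libraries, and the input level enters both measures. Calls among all genes in the same ranges of level are not given here, so the split by level is not read as a trait of the 66.

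Other mitochondrial lists behaved differently in size. With ERM, 1 of 76 respiratory chain subunit genes was higher and 65 were lower, with a median log2 fold change of -1.40, and with NES 1 was higher and 60 lower. Of 32 other import and carrier genes, such as chaperones, proteases and assembly factors, 5 were higher and 22 lower with ERM (median -0.83) and 5 and 21 with NES. Of 162 other SLC transporter genes, 68 were higher and 36 lower with ERM, and 34 and 47 with NES. Among 74 mitochondrial ribosomal protein genes 16 were higher and 36 lower with ERM. The 66 genes had 22 higher and 22 lower with ERM (median -0.05), between the respiratory chain subunits and the other SLC transporters (median 0.28) by these counts. With NES they had 17 higher and 16 lower (median -0.05) and no longer lay between these lists, since the other SLC transporters had a median of -0.27. The lists were not tested against each other. In the difference of MITO from NES with s6G, 23 of 78 respiratory chain genes were higher and none lower, against 1 and 4 of the 66.

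Input libraries with s6G were set against APEX only inputs, and s4U inputs likewise, to see whether the nucleoside itself moved the 66 mRNAs. None was called in any of the 4 input comparisons. Over all genes the share called was 0.0528% for MITO s6G over APEX only, 0 for MITO s4U over APEX only, 0 for MITO s6G over s4U and 0.127% for LMNB1 s6G over APEX only. At an unadjusted p under 0.05 these comparisons had 4, 0, 2 and 12 of the 66 genes, against 8.49%, 3.85%, 4.67% and 11.5% of all genes, and DESeq2 called 0 of the 66 in each.

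Over all inputs, SLC25A47, a carrier known from liver on chromosome 14 from 100323339 to 100330421, stood apart, which was noticed after its values were seen and is given with no test. In the 10 inputs of s6G cells it had 2.12 to 4.43 plain CPM, with a median of 3.62, and in the 10 inputs without s6G it had 0 to 0.254 CPM, with a median of 0.169. It was the 1 gene of the 66 with every s6G input above every other input, against 1.28% of 14884 genes. Among MITO and LMNB1 inputs this held for SLC25A47 and SLC25A3, against 2.11% of genes. ERM and NES were used with s6G alone, so construct and nucleoside cannot be told apart there. By edgeR SLC25A47 was at 4.16 ± 1.04 for MITO s6G over APEX only inputs (adjusted p = 0.194) and at 4.18 ± 1.11 for LMNB1 (adjusted p = 0.187), n = 2 per group, and was not called. TOMM40L and SLC25A32 were among the genes with every s6G input below every other input, as were 4.37% of all genes. SLC25A32 had 8.17 to 20 CPM with s6G and 20.5 to 49.6 CPM without, ranges that nearly touch. Among MITO and LMNB1 inputs alone the same held for TOMM40L, SLC25A32 and SLC25A37, an iron carrier, and for 5.76% of all genes.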

How the data were processed

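The authors deposited gene counts (whole numbers, 57992 genes, 40 libraries), log2 fold changes with p-values per gene, log2(TPM + 1) values for MITO and signal tracks of coverage, which were not used. In the deposited log2 TPM table each linear column sums to 2000000, so both replicates' TPM were added, and the TPM given here are their mean. Per the submitters' processing notes the build was GRCh38, reads were handled with HISAT2 (2.1.0), SAMtools and HTSeq (0.7.2), and deepTools (2.5.3) and DESeq2 were also used. Whether counting used strand is not given in the sources used here, and reads of a gene and of one overlapping it, antisense ones included, cannot be separated.

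The count models came from edgeR (version 4.0.16, R 4.3.3; robust quasi-likelihood test, TMM, default expression filter, Benjamini-Hochberg, called at an adjusted p of 0.05) in fits of group means for MITO (16 libraries, 15151 genes), ERM with NES (12, 15619), LMNB1 (12, 16525) and all 40 libraries (19314). The steps were tested on simulated data. Per-library values are TMM-scaled CPM within a fit. Standard errors come from the fit, and p-values measure the spread between these libraries, which the series design calls biological replicates. Titles gave the groups: the characteristics of enriched ERM and of LMNB1 s6G libraries name s4U, while titles and design name s6G. Per the series design a number marks 1 replicate before and after the beads, so numbers pair the libraries. Their deviations from group means correlated at 0.534, 0.635, 0.491 and 0.104 in the MITO s6G, s4U, APEX only and unlabelled arms, 0.187 for NES, 0.503, 0.348 and 0.0409 for LMNB1 s6G, APEX only and unlabelled, and 0.204, 0.147, 0.16 and 0.197 for ERM numbers 1 to 4. Alternatives were RLE scaling, total counts, no filter, DESeq2 1.42.0, the replicate block and leaving out single libraries. For 1 of the 66 genes no value of its own is reported here. The genes and lists were chosen with earlier results of these data known. Genes were named by rule (up to 5 called per arm and direction, up to 3 per other comparison, and the 3 most abundant per group), and others, such as SLC25A25 in the MITO minus NES difference, after their values were seen, to complete a functional group.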

Additional observations from a re-analysis of the deposited data

Results flagged for a closer look

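Within the 4 ERM enriched libraries, SLC25A33 stood apart in replicate 1, at 74.7 TMM-scaled CPM against 84 to 85.5 in the other 3. It was 1 of 24 groups of 4 examined in this way, where chance alone marks about 1 in 20, and replicate 1 still lay above all ERM inputs.

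SLC25A5 differed between labelled and unlabelled LMNB1 cells, with an s6G enrichment minus unlabelled enrichment of -1.38 on the log2 scale. MITO and NES differed with s6G for TOMM7 at 2.04, SLC25A25 at -1.38, SLC25A36 at -1.48, TIMM29 at -1.51 and SLC25A33 at -1.54, each the MITO enrichment minus the NES enrichment. Enriched TOMM7 stood at 190 and 335 CPM with MITO s6G and at 47.6 and 63.8 CPM with NES, each scaled within its own fit. All of these passed edgeR's interaction test at an adjusted p under 0.05. The 3 carriers with a full cyclic AMP response element word in the promoter are all among the 4 genes lower in this difference, which was noticed after the values were seen. The difference contains the NES enrichment, in which these 3 carriers were already called higher. It is therefore not a second, separate observation on the promoter word.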

How the results depend on the processing

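The number of ERM and NES calls moved little: 39 to 46 genes for ERM and 29 to 38 for NES over the alternatives run, and the 10 genes with the largest called changes in each kept their calls. The even split of the ERM calls into higher and lower did not hold with total counts, as given above. With total counts the number called was 17, 5 and 6 for MITO s6G, s4U and APEX only, 3 for MITO unlabelled, 1 for LMNB1 APEX only, and 8, 3 and 24 for the differences MITO s6G minus unlabelled, LMNB1 s6G minus unlabelled and MITO s6G minus NES. RLE scaling gave 2 for LMNB1 APEX only. Without a filter on low counts there were 3 for MITO unlabelled, 4 for LMNB1 unlabelled, 1 each for MITO s6G and s4U minus unlabelled, 3 for LMNB1 APEX only minus unlabelled and 1 for LMNB1 s6G minus APEX only. DESeq2 gave 5, 6 and 1 for MITO s6G, s4U and APEX only, 10 and 5 for LMNB1 APEX only and unlabelled, 2 for each MITO arm minus unlabelled, 9, 2 and 5 for LMNB1 s6G minus unlabelled, APEX only minus unlabelled and s6G minus APEX only, and 9 for MITO s6G minus NES. The replicate block gave 5, 7 and 9 for MITO s6G, s4U and APEX only, 8 for LMNB1 APEX only, 2 for ERM minus NES, 3, 2 and 3 for MITO s6G, s4U and APEX only minus unlabelled, 3 for LMNB1 s6G minus unlabelled and 16 for MITO s6G minus NES. Leaving out 1 library gave 40 to 44 (ERM), 29 to 31 (NES), 7 to 13 (LMNB1 s6G), 0 (LMNB1 APEX only), 0 to 4 (LMNB1 unlabelled), 0 to 6 (MITO unlabelled), 0 (ERM minus NES), 0 to 4 (MITO s6G and s4U minus unlabelled), 0 to 5 (MITO APEX only minus unlabelled), 0 to 8, 0 to 1 and 0 (LMNB1 s6G minus unlabelled, APEX only minus unlabelled, s6G minus APEX only) and 2 to 7 (MITO s6G minus NES). For the MITO arms and LMNB1 APEX only minus unlabelled, every count above 0 came without unlabelled enriched replicate 2, and for LMNB1 unlabelled without enriched replicate 1. Chosen after seeing the data, ERM numbers 1 and 2 alone gave 2 for ERM minus NES and numbers 3 and 4 alone gave 7, and leaving out the unlabelled MITO libraries moved none of the MITO counts. The causes were not tested. Of the values of named genes outside leave-one-out fits, 224 kept their call, 11 lost it and none reversed. Depth limits the unlabelled MITO libraries most, at 123341 and 842177 counts.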
